A study of Sus scrofa with 6 samples.

Results

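The genes described here are 10 endothelial and angiogenic factor genes of pig loin muscle, taken by symbol: VEGFA, VEGFB, FLT1, TEK, TIE1, ANGPT1, ANGPT2, PECAM1, CDH5 and VWF. Of these, 9 had a row in the deposited table of 25322 genes, 1 row each, and all 9 were above the count filter that left 13209 genes for testing. CDH5 was not analysed here, as no row was found under its symbol. RNA of the longissimus dorsi, a muscle that runs along the spine and gives the pork loin, was sequenced in 3 Wei and 3 Yorkshire libraries. The pigs of both breeds were raised in a similar way, per the labels, and a slaughter weight of 90 kg is given for the Wei pigs. No treatment, genotype, age or sex is given for either breed. Pooling is not described, and the labels do not state that the libraries are from different animals, so the p-values speak only of the variation among the 6 libraries.

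Blood vessels are built from an inner layer of endothelial cells wrapped by mural cells, the pericytes and smooth muscle cells. In mouse and human, VEGFA made by muscle fibres drives capillary growth through the receptor KDR on endothelium, while FLT1 binds VEGFA and VEGFB tightly and limits how much VEGFA reaches KDR. In the same species ANGPT1, made largely by mural and other stromal cells, activates the endothelial receptor TEK (also called Tie2) and keeps vessels stable. ANGPT2 comes from the endothelium itself and can block that signal, and TIE1 is a partner of TEK. PECAM1 and CDH5 are adhesion proteins of the contacts between endothelial cells, and VWF is the clotting protein that endothelial cells store and release.

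ANGPT1 was lower in Wei muscle, by 1.38 on the log2 scale, and was the 1 gene of the 9 that passed the test. VEGFA averaged 122 ± 53.5 CPM (counts per unit of scaled library size; SD, n = 3) in Wei libraries and 66.6 ± 21.9 in Yorkshire libraries, and did not pass. PECAM1 averaged 81.4 ± 9.04 CPM in Wei libraries and 106 ± 4.63 in Yorkshire libraries, and did not pass either. In such bulk tissue, fewer cells of a type and less RNA per cell cannot be told apart. The receptors FLT1, TEK and TIE1 and the proteins VEGFB and VWF differed between the breed means by less than the larger SD of the breeds. The test was edgeR's quasi-likelihood test with Benjamini-Hochberg adjustment over all tested genes and a threshold of 0.05. It called 5.08% of all tested genes, 2.73% as higher and 2.35% as lower in Wei. The median log2 fold change of the 9 genes was 0.17 (0.04 to 0.27 with 1 library left out), against -0.02 over all tested genes. An unadjusted p under 0.05 was reached by 3 of the 9, VEGFA higher and ANGPT1 and PECAM1 lower, where 23.3% of all genes reached it. The 3 values of each breed did not overlap for 3 of the 9 genes, ANGPT2 (Wei higher), ANGPT1 and PECAM1 (Wei lower), against 29.6% of all tested genes.

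**Figure D1:**
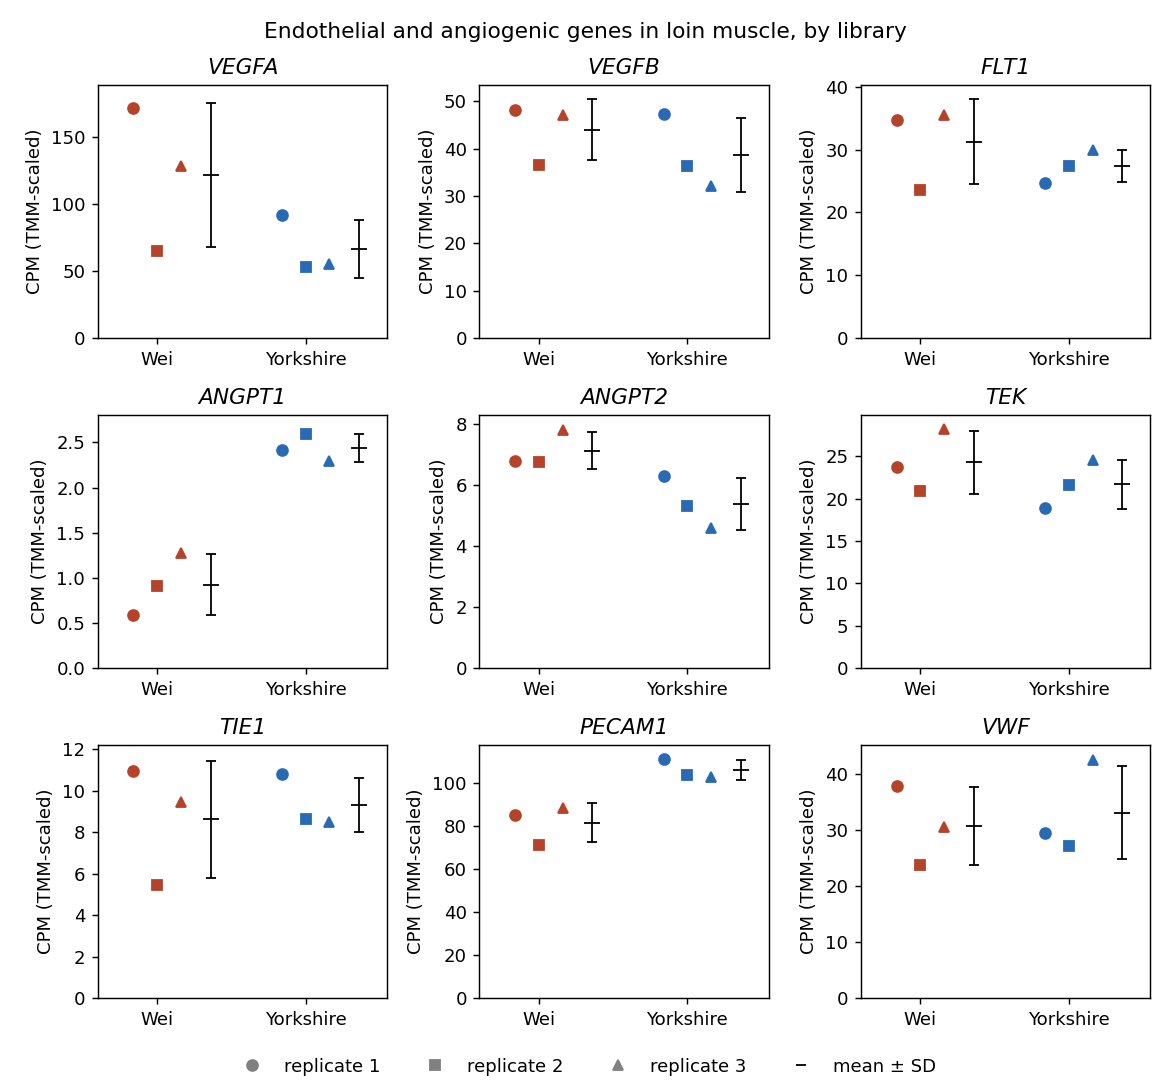
CPM of the 9 genes in each library, with a panel per gene, Wei libraries in red on the left and Yorkshire libraries in blue on the right. Symbols mark the replicate and bars the mean ± SD (n = 3). The breeds do not overlap for ANGPT1, ANGPT2 and PECAM1, and overlap in the other panels.

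Total gene counts ran from 15285197 to 22570075 in Wei libraries and from 17876646 to 27096747 in Yorkshire libraries. Of the marker lists used here, skeletal muscle fibre genes had the highest level, with a mean log2 CPM of 11.8 to 12.3 in Wei and 12.0 to 12.1 in Yorkshire over 10 tested markers. Their summed level was 75908 to 116716 FPKM in Wei and 116859 to 120623 FPKM in Yorkshire, with no overlap and a narrow gap. Wei replicate 2 had 6901 counts from Y chromosome genes, against at most 14 in each other library. Yorkshire replicate 3 had the highest level of lymphocyte markers, a summed FPKM of 11.2 against at most 3.04 in each other library of either breed. Wei replicate 1 had the lowest share of ACTA1, the muscle actin gene, with 3.77% of its counts against 6.52% to 8.76% in the other libraries.

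Levels between genes can be compared only per length, so the deposited FPKM values (reads scaled by gene length and library size) were used for that. VEGFA had the highest mean level over the 6 libraries, 50.6 FPKM, and ANGPT2 the lowest, 1.07 FPKM, a 47.2-fold range. VEGFB stood at 37.6 FPKM, PECAM1 at 10.6, FLT1 at 8.43, VWF at 5.32, TEK at 3.05, TIE1 at 2.69 and ANGPT1 at 1.61 FPKM. By these means VEGFA and VEGFB lay above the receptors and the endothelial proteins, and the 2 angiopoietins lay lowest. Several neighbours in this order were not separated in every library. VEGFA exceeded VEGFB in 5 of 6 libraries, PECAM1 exceeded FLT1 in 4, TEK exceeded TIE1 in 4, and ANGPT1 exceeded ANGPT2 in 3. Those 3 were the Yorkshire libraries. This order rests on the lengths behind the deposited FPKM, which come to 5819 bases for ANGPT2 and 1040 for ANGPT1. By CPM, which takes no account of length, ANGPT2 exceeded ANGPT1 in all 6 libraries.

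**Figure D2:**
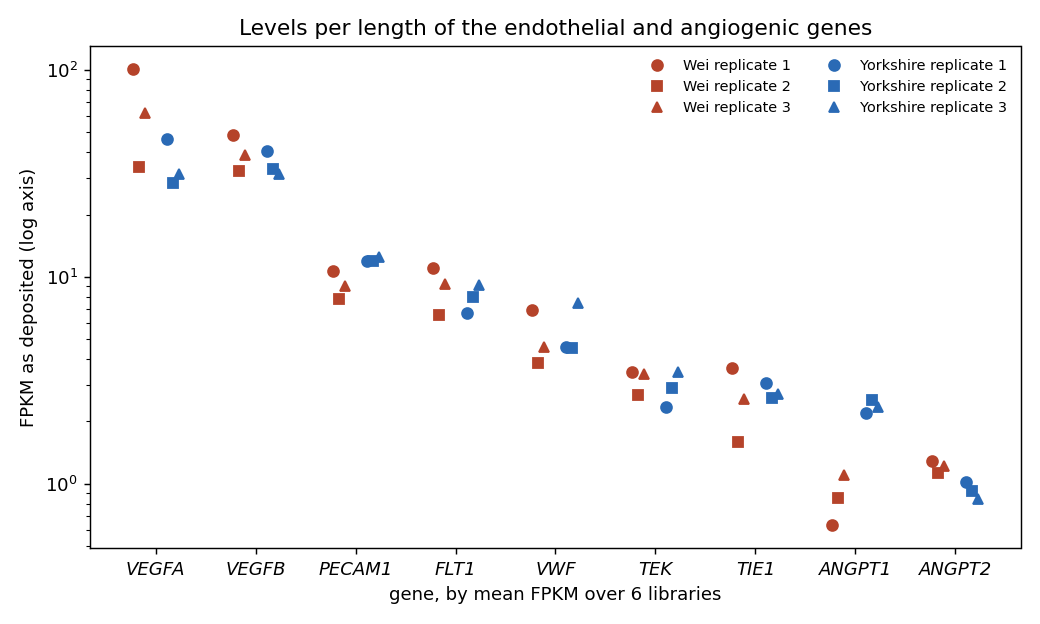
Deposited FPKM (log axis) of the 9 genes in each library, genes ordered by their mean over the 6 libraries, with Wei in red left of Yorkshire in blue. VEGFA and VEGFB are highest, and ANGPT1 lies below ANGPT2 in the 3 Wei libraries and above it in the 3 Yorkshire libraries.

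Among the VEGF ligands, VEGFA (ENSSSCG00000001695, chromosome 7, 44459903 to 44474467 in Sscrofa10.2) had 172, 65.3 and 128 CPM in Wei replicates 1 to 3, against 91.8, 52.8 and 55.1 CPM in Yorkshire replicates 1 to 3. The breeds overlapped because Wei replicate 2 lay below Yorkshire replicate 1, while Wei replicates 1 and 3 lay above all Yorkshire libraries. The log2 fold change was 0.87 ± 0.35 (SE), a 1.83-fold difference, with an adjusted p of 0.179 from edgeR's quasi-likelihood test. VEGFA varied more within a breed than any other of the 9 genes, with a coefficient of variation of 43.9% in Wei and 32.9% in Yorkshire. Leaving out 1 library in turn moved its log2 fold change between 0.55, without Wei replicate 1, and 1.18, without Wei replicate 2, and none of these fits passed the threshold.

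VEGFB (ENSSSCG00000013037, chromosome 2, 6939770 to 6942952) is the ligand of FLT1 that does not bind KDR, and in mouse muscle it is tied to fatty acid uptake. It had 48.2, 36.6 and 47.1 CPM in Wei replicates 1 to 3, against 47.3, 36.3 and 32.2 CPM in Yorkshire replicates 1 to 3. Values of the breeds were interleaved, and the log2 fold change was 0.19 ± 0.18 (SE; adjusted p = 0.561). The ratio of VEGFA to VEGFB by FPKM was 2.09, 1.05 and 1.60 in Wei replicates 1 to 3, against 1.14, 0.854 and 1.0 in Yorkshire replicates 1 to 3. The breeds overlapped in this ratio as well, since Wei replicate 2 fell between the Yorkshire libraries (two-sided exact permutation test, p = 0.2, n = 3 each).

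FLT1 (ENSSSCG00000009320, chromosome 11, 5316370 to 5455380) had 34.8, 23.5 and 35.5 CPM in Wei replicates 1 to 3, against 24.7, 27.4 and 29.9 CPM in Yorkshire replicates 1 to 3. Wei replicate 2 was the lowest of all 6 libraries and the other Wei libraries were the highest. Its log2 fold change was 0.20 ± 0.18 (SE; adjusted p = 0.544). KDR, the main signalling receptor for VEGFA, is not among the 10 genes and lies beside KIT on chromosome 8. It had 39.5, 20.9 and 43.6 CPM in Wei replicates 1 to 3, against 36.0, 20.1 and 15.0 CPM in Yorkshire replicates 1 to 3, with a log2 fold change of 0.55 ± 0.36 (SE; adjusted p = 0.39). By FPKM, FLT1 exceeded KDR in every library, an order that rests on the gene lengths behind the deposited FPKM. By CPM, KDR exceeded FLT1 in Wei replicates 1 and 3 and in Yorkshire replicate 1, and lay below it in the others. The ratio of FLT1 to KDR by FPKM was 2.43, 3.11 and 2.25 in Wei replicates 1 to 3, against 1.90, 3.76 and 5.51 in Yorkshire replicates 1 to 3 (two-sided exact permutation test, p = 0.5). The Yorkshire libraries spanned the Wei values. The ratio of VEGFA to FLT1 was 9.20, 5.17 and 6.72 in Wei replicates 1 to 3, against 6.92, 3.59 and 3.44 in Yorkshire replicates 1 to 3 (two-sided exact permutation test, p = 0.3). Only Yorkshire replicate 1 reached into the Wei range.

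ANGPT1 (ENSSSCG00000006035, chromosome 4, 32646874 to 32751649) had 0.591, 0.909 and 1.27 CPM in Wei replicates 1 to 3, against 2.42, 2.60 and 2.29 CPM in Yorkshire replicates 1 to 3. Every Wei library lay below every Yorkshire library, a pattern that 15.3% of all tested genes showed in this direction. These levels rest on 10, 14 and 26 counts in the Wei libraries and 62, 47 and 63 counts in the Yorkshire libraries. The exact 95% Poisson interval, which covers counting error only, ran up to 1.86 CPM in Wei replicate 3 and down to 1.76 CPM in Yorkshire replicate 3, so those intervals overlapped. The log2 fold change was -1.38 ± 0.32 (SE), which makes Wei 0.383 of Yorkshire, and its size was above that of 96.5% of tested genes. The adjusted p was 0.0487 in edgeR's quasi-likelihood test, just under the threshold. With any 1 library left out, the adjusted p was between 0.0622 and 0.148, so the call was lost in all 6 fits, while the log2 fold change stayed between -1.70 and -1.14.

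ANGPT2 (ENSSSCG00000015753, chromosome 15, 42685042 to 42787678) had 6.80, 6.75 and 7.82 CPM in Wei replicates 1 to 3, against 6.29, 5.31 and 4.59 CPM in Yorkshire replicates 1 to 3. The 3 Wei libraries lay above the 3 Yorkshire libraries, with a narrow gap between Wei replicate 2 and Yorkshire replicate 1, and 14.3% of tested genes showed that pattern. ANGPT2 had a log2 fold change of 0.40 ± 0.19 (SE), and the adjusted p was 0.234. Inside this locus the table places MCPH1, a gene of chromosome condensation, so without knowing whether counting used strand the reads of the 2 genes cannot be fully told apart. MCPH1 itself had a log2 fold change of 0.07 ± 0.17 (SE; adjusted p = 0.838).

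A ratio taken within each library gives the balance of the angiopoietins. ANGPT2 was higher and ANGPT1 lower in every Wei library than in every Yorkshire library. Their ratios therefore had to lie apart between the breeds, and the permutation test could only give its smallest p. It adds no support beyond the values of each gene. The ratio of ANGPT2 to ANGPT1 by FPKM was 2.06, 1.33 and 1.10 in Wei replicates 1 to 3, against 0.464, 0.365 and 0.357 in Yorkshire replicates 1 to 3. All Wei ratios were above 1 and all Yorkshire ratios below 0.5, and the mean log2 ratio differed by 1.88, or 3.67-fold. Where the ratios lie relative to 1 depends on the gene lengths, while the difference between breeds does not, at 1.88 with counts in place of FPKM. The exact permutation test gave p = 0.1, two-sided, the smallest that 3 against 3 libraries allow, and 0.5 after adjustment over 5 ratios. The difference in mean log2 ratio ran from 1.62 to 2.07 with 1 library left out.

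**Figure D3:**
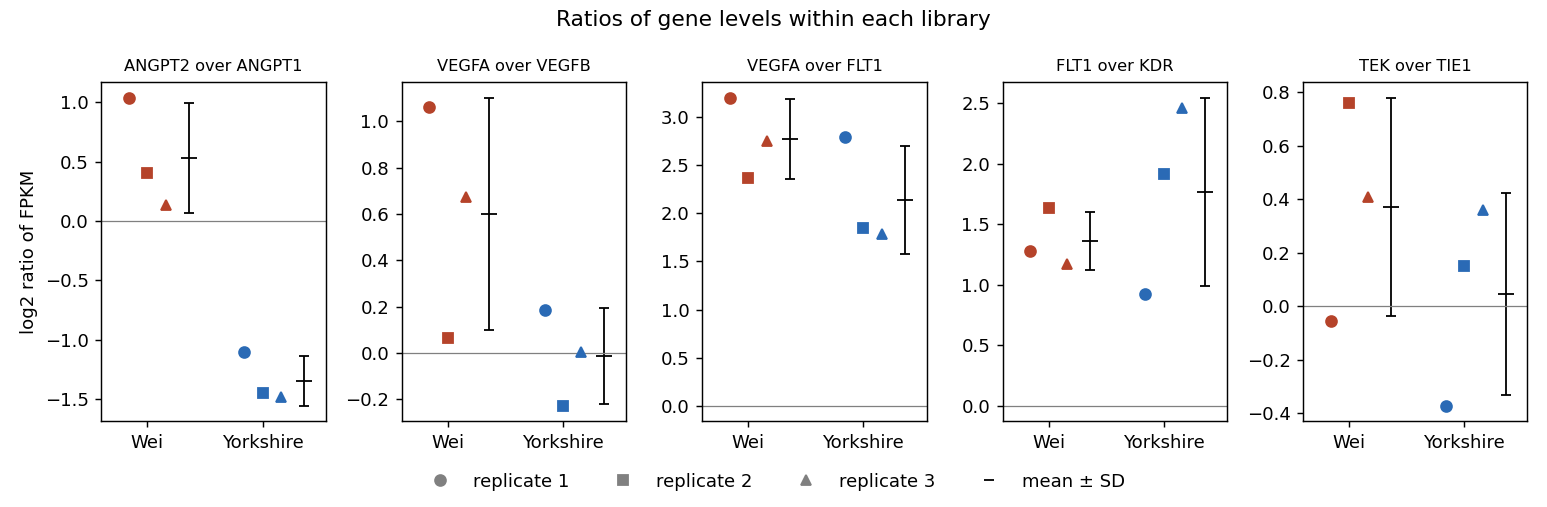
Log2 ratio of FPKM within each library for 5 gene pairs, Wei in red left of Yorkshire in blue, with the mean ± SD (n = 3) and a grey line at equal levels. The breeds are apart for ANGPT2 over ANGPT1 and overlap for the other 4 pairs.

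The angiopoietin receptor TEK (ENSSSCG00000005122, chromosome 1, 218224162 to 218500245) had 23.8, 20.8 and 28.3 CPM in Wei replicates 1 to 3, against 18.9, 21.6 and 24.6 CPM in Yorkshire replicates 1 to 3. Its partner TIE1 (ENSSSCG00000003950, chromosome 6, 155288383 to 155321728) had 10.9, 5.46 and 9.44 CPM in Wei replicates 1 to 3, against 10.8, 8.62 and 8.48 CPM in Yorkshire replicates 1 to 3. Both receptors overlapped between the breeds, and Wei replicate 2 held the lowest TIE1 value. The log2 fold change was 0.17 ± 0.16 for TEK (SE; adjusted p = 0.58) and -0.11 ± 0.25 for TIE1 (SE; adjusted p = 0.834). The sign for TIE1 turned to 0.14 without Wei replicate 2. The ratio of TEK to TIE1 was 0.963, 1.69 and 1.33 in Wei replicates 1 to 3, against 0.773, 1.11 and 1.28 in Yorkshire replicates 1 to 3 (two-sided exact permutation test, p = 0.4).

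PECAM1 (ENSSSCG00000017277, chromosome 12, 14660875 to 14717153) had 84.9, 71.2 and 88.3 CPM in Wei replicates 1 to 3, against 111, 104 and 103 CPM in Yorkshire replicates 1 to 3. All Wei libraries lay below all Yorkshire libraries, and the Yorkshire values were tight, with a coefficient of variation of 4.38%, against 11.1% in Wei. PECAM1 had a log2 fold change of -0.38 ± 0.13 (SE), with Wei at 0.77 of Yorkshire and an adjusted p of 0.121. PECAM1 is also made by leukocytes and platelets. Lymphocyte markers had a summed level of 1.62 to 2.21 FPKM in Wei and 2.38 to 11.2 FPKM in Yorkshire, and their part in the PECAM1 levels was not tested. Without Yorkshire replicate 3, the library highest in those markers, the log2 fold change of PECAM1 was -0.39 (adjusted p = 0.219 in edgeR's quasi-likelihood test). The lymphocyte list still had a median log2 fold change of -0.61 in that fit, so leaving out this library did not make the breeds alike in those markers. The macrophage list had a median of -0.93 with all 6 libraries and 0.05 in that fit. Its part in the PECAM1 levels was not tested either. Of 6 platelet genes with a row, 1 (ITGA2B) was above the count filter, PF4 and TREML1 had no count, and their summed level was at most 0.59 FPKM in Wei and 0.718 FPKM in Yorkshire.

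VWF (ENSSSCG00000000712, chromosome 5, 67005340 to 67078256) had 37.8, 23.8 and 30.5 CPM in Wei replicates 1 to 3, against 29.5, 27.1 and 42.4 CPM in Yorkshire replicates 1 to 3. Values of the breeds were interleaved, and the highest was that of Yorkshire replicate 3. The log2 fold change was -0.11 ± 0.22 (SE; adjusted p = 0.812), and it was 0.05 without Wei replicate 2 and 0.12 without Yorkshire replicate 3. VWF, like TIE1 and TEK, overlapped between breeds, while PECAM1 did not; whether these endothelial genes differed from each other in their change was not tested.

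**Figure D4:**
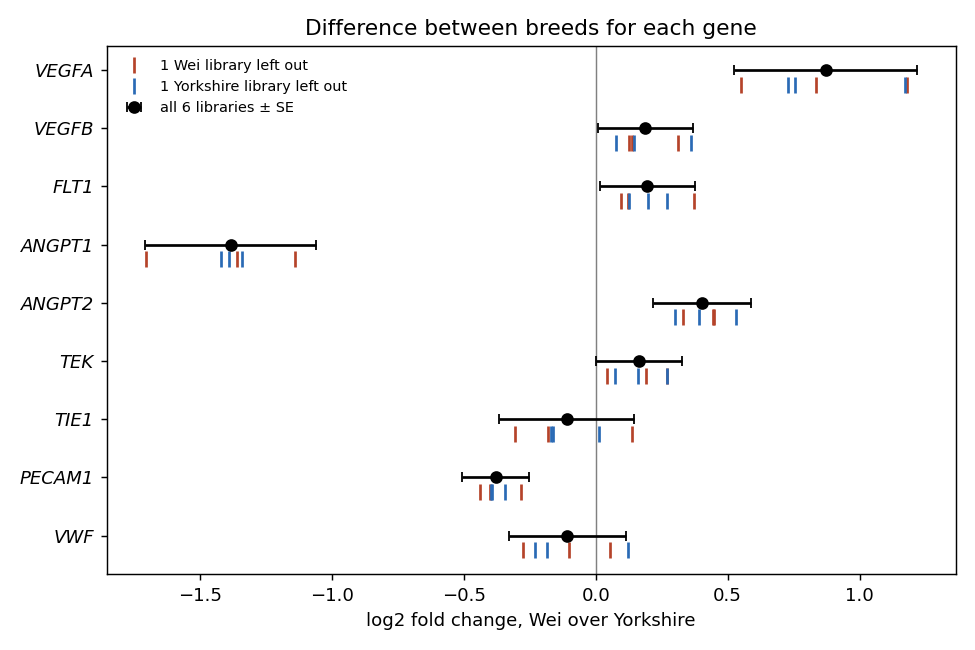
Log2 fold change, Wei over Yorkshire, of each gene over all 6 libraries (black, ± SE), with the fits that leave out 1 Wei library (red ticks) or 1 Yorkshire library (blue ticks). ANGPT1 is the lowest at -1.38 and VEGFA the highest at 0.87; the ticks of TIE1 and VWF lie on both sides of 0.

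Wei replicate 2 had the lowest Wei value for 8 of the 9 genes, where 33.3% of all tested genes were lowest in it, and ANGPT1, lowest in Wei replicate 1, was the exception. The highest Wei value was in replicate 1 for 4 genes and in replicate 3 for 5. In the Yorkshire group replicates 1, 2 and 3 were lowest for 2, 2 and 5 genes. These counts are a description, and no test of joint variation was made. Wei replicate 2 was also the lowest library for the summed level of 18 endothelial surface and junction genes, 111.5 FPKM, against 141 and 137 in Wei replicates 1 and 3 and 131 to 141 in the Yorkshire libraries. It was also the library with 6901 counts from Y chromosome genes, and the part of that difference in these levels was not tested.

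Genes whose pattern was most like that of VEGFA over the 6 libraries were sought among 7800 tested genes with a symbol in the table and an average log2 CPM of at least 1. The measure was the mean absolute difference of log2 CPM after each gene's own mean was subtracted. The nearest were SLC22A23 at 0.132, ASB18 at 0.135 and ETV5 at 0.141 on the log2 scale. Like VEGFA, each was highest in Wei replicate 1, and none passed the test between breeds, with log2 fold changes of 0.74, 0.79 and 0.79. As they were picked for likeness over the same libraries, these shared traits follow from the choice.

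Other vascular genes were taken from lists of the VEGF family, endothelium, hypoxia response, mural cells and further angiogenic factors. Across these lists and those of other cell types, 8 genes passed. Calls in each list stand beside the shares over all tested genes, of which 5.08% passed and 23.3% had an unadjusted p under 0.05. A single call in a list this short is not read as a result about the list. In the VEGF family outside the 9 genes, 0 of 7 passed edgeR's quasi-likelihood test, 2 had an unadjusted p under 0.05, and the median log2 fold change was 0.02. DESeq2 called 1 of the 7, PGF, and limma voom 0. PGF, placental growth factor, another ligand of FLT1, averaged 1.41 ± 0.167 CPM in Wei and 3.08 ± 0.766 CPM in Yorkshire (SD, n = 3 each), a log2 fold change of -1.14 ± 0.28 (SE) with an adjusted p of 0.0546 in edgeR. VEGFC, the ligand of lymphatic growth, had a log2 fold change of -0.72 ± 0.30 (SE; adjusted p = 0.194).

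Endothelial surface and junction genes had changes of both signs. Of 18 surface and junction genes 0 passed in edgeR, DESeq2 or limma voom, and 0 had an unadjusted p under 0.05. Changes were positive for 10 and negative for 8, and the median was 0.01, or 0.16 without Wei replicate 2. PTPRB and EMCN had the smallest p of the 18. PTPRB, a phosphatase that restrains TEK, was at -0.37 ± 0.17 (log2, SE). EMCN, a capillary sialomucin with under 1 CPM in every library, was at 0.94 ± 0.46 (log2, SE). Without Wei replicate 3, EMCN fell below the count filter, and the median of the 17 genes left was -0.17. Of 12 endothelial transcription factor and Notch genes, 1 passed. JAG1, a Notch ligand, fell to 18.2 ± 2.33 CPM in Wei, against 28.4 ± 3.04 CPM in Yorkshire (SD, n = 3 each; log2 fold change -0.65 ± 0.15, adjusted p = 0.0485). Of 7 genes of activated and lymphatic endothelium, 1 passed, while 2 higher and 1 lower in Wei had an unadjusted p under 0.05. DESeq2 called 1 higher, PROX1, and 1 lower, PDPN, and limma voom called PDPN alone. PDPN, a surface protein of lymphatic endothelium and of fibroblasts, fell to 3.31 ± 0.716 CPM in Wei, against 6.43 ± 0.345 CPM in Yorkshire (adjusted p = 0.043), although the median of its list was 0.67, or 0.15 without Yorkshire replicate 1. Both JAG1 and PDPN missed the threshold with any 1 library left out and with library size alone as the scaling (adjusted p of 0.0597 and 0.0688).

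In the list of hypoxia-inducible factors, oxygen sensors and targets, 1 of 16 genes passed and the median log2 fold change was -0.12. That gene was P4HA1, which hydroxylates proline in collagen, at 43.8 ± 3.99 CPM in Wei and 80.7 ± 2.91 CPM in Yorkshire (SD, n = 3 each; log2 fold change -0.88 ± 0.12, adjusted p = 0.0116). P4HA1 passed in 5 of 6 fits with 1 library left out, the exception being the fit without Yorkshire replicate 2 (0.059). HIF1A, the hypoxia factor that drives VEGFA transcription in mouse and human, was named after its values were seen. It averaged 30.0 ± 5.65 CPM in Wei and 39.1 ± 4.04 CPM in Yorkshire (SD, n = 3 each), a log2 fold change of -0.38 ± 0.17 that did not pass (adjusted p = 0.215). EGLN3, also named after its values were seen, had the highest change of the list at 0.80 and did not pass in edgeR. DESeq2 called 1 gene of the list higher, EGLN3, and 1 lower, P4HA1, and limma voom called P4HA1 alone. Of the 16 genes of this list, 7 had a positive and 9 a negative change, and their part in the VEGFA levels was not tested.

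Among 14 other angiogenic and anti-angiogenic factors, 2 passed and both fell in Wei. ANGPTL2, a secreted relative of the angiopoietins that does not bind TEK, had 16.1, 22.7 and 15.1 CPM in Wei replicates 1 to 3, against 53.9, 53.3 and 42.7 CPM in Yorkshire replicates 1 to 3. Its log2 fold change was -1.48 ± 0.19 (SE; adjusted p = 0.00956 in edgeR's quasi-likelihood test), and it passed in 5 of 6 fits with 1 library left out, the exception being the fit without Yorkshire replicate 2 (0.0511). SPARC, a matrix protein that binds collagen and growth factors, averaged 77.1 ± 31.5 CPM in Wei and 187 ± 19.1 CPM in Yorkshire (log2 fold change -1.28 ± 0.30, adjusted p = 0.0468). SPARC passed in 1 of the 6 such fits, that without Wei replicate 1.

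Mural and stromal markers were given beside ANGPT1 because those cells make it. In the mural cell list 1 of 11 genes passed, 5 more were at an unadjusted p under 0.05 (4 lower and 1 higher in Wei), and the median log2 fold change was -0.37. DESeq2 called 2 of the 11, CSPG4 and RGS5. CSPG4, the pericyte proteoglycan also called NG2, fell to 2.45 ± 0.509 CPM in Wei, against 4.82 ± 0.259 CPM in Yorkshire (SD, n = 3 each; adjusted p = 0.0453), and missed the threshold with any 1 library left out and with library size alone (0.0537). The summed level of the 11 mural genes overlapped, at 151 to 268 FPKM in Wei and 176 to 212 FPKM in Yorkshire. All 7 tested fibroblast genes had a negative change, with a median of -0.87 (-1.25 to -0.69 with 1 library left out), and 4 had an unadjusted p under 0.05. DPT, a matrix protein of dermis and muscle sheaths, was the 1 that passed in edgeR (-1.29 ± 0.21, adjusted p = 0.0189). DESeq2 called 4 of the 7 lower in Wei, COL1A2, COL3A1, DPT and LUM, and limma voom called DPT alone. DPT missed the threshold without Wei replicate 1, Wei replicate 3 or Yorkshire replicate 2 (0.0592 to 0.0758). The summed level of the fibroblast genes was 234 to 473 FPKM in Wei and 516 to 894 FPKM in Yorkshire, with no overlap and no gene of the list at 0. Their part in the ANGPT1 difference was not tested.

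Of 5 adipocyte markers, 2 had a positive and 3 a negative change. PLIN4, a lipid droplet protein also made by muscle fibres, was the 1 that passed in edgeR, higher in Wei (0.70 ± 0.14, adjusted p = 0.0336). It missed the threshold in 4 of 6 fits with 1 library left out, passing without Wei replicate 2 or Yorkshire replicate 1. Of 10 muscle fibre markers, 8 macrophage and 6 lymphocyte markers, 0 passed in edgeR, and an unadjusted p under 0.05 was reached by 0, 1 and 5. DESeq2 called 0, 1 and 2 of these and limma voom 0 in each list. The medians of the macrophage and lymphocyte lists were -0.93 and -1.64, and without Yorkshire replicate 3 they were 0.05 and -0.61. Their summed levels were 26.5 to 31.3 and 1.62 to 2.21 FPKM in Wei, and 25.7 to 115 and 2.38 to 11.2 FPKM in Yorkshire, with the top value in Yorkshire replicate 3.

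**Figure D5:**
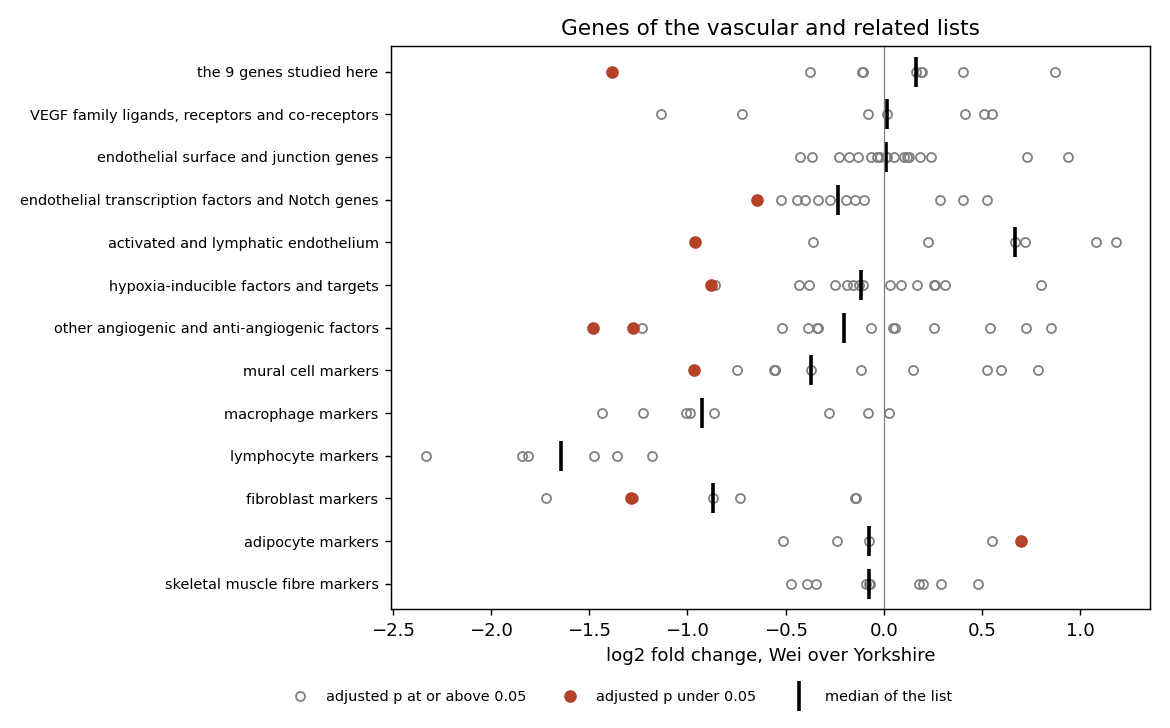
Log2 fold change, Wei over Yorkshire, of each tested gene in the lists, with the 9 genes in the top line. Filled points passed an adjusted p of 0.05, open points did not, and the bar is the median of the list, which lies at -0.87 for fibroblast and 0.01 for endothelial surface genes.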

How the data were processed

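Per the file headers, the authors deposited 1 table that gives each gene a raw count and an FPKM for every library. CASAVA 1.7, TopHat2 2.0.9, edgeR and the build Sscrofa10.2 are listed in the submitters' processing notes, with no roles; the counter, the annotation and the strand setting are not named in them. Coordinates are those of the table and count from 1. Libraries were grouped by breed label. The main test was edgeR 4.0.16 in R 4.3.3 (glmQLFit and glmQLFTest with breed as the only term), after filterByExpr at a minimum count of 10 and TMM scaling. Adjustment by Benjamini-Hochberg covered 13209 genes. Each SE was taken as the size of the unshrunk log2 fold change divided by the root of the F statistic. Common dispersion corresponded to a biological coefficient of variation of 21.8%. Log2 CPM values used a prior count of 2. FPKM values served for levels between genes and for ratios. Each pair of libraries differed by more than sampling noise, the lowest chi-square per degree of freedom being 26.3. List genes were matched by the table's symbol or, for 1774 of 9160 IDs without one, by a table of gene names.

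The members and lists were chosen with earlier results of these data known. Named genes are the members, up to 4 called genes of each list (otherwise the 2 with the smallest p), the 3 genes most like VEGFA and genes used in ratios; others are said to be named after their values were seen, and values of some are not printed. CDH5 was to be treated like VEGFA. Promoter and protein sequences were not used here. The fit was tested on simulated data. Alternatives were RLE scaling, library size alone, no filter, a filter of 1 CPM in 3 libraries, DESeq2 1.42.0, limma voom (limma 3.58.1), the replicate number as a block, library sizes without mitochondrial genes and ACTA1, and each library left out. Figures were drawn with matplotlib 3.10.9.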

Additional observations from a re-analysis of the deposited data

How the results depend on the processing

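Of 72 log2 fold changes of the 9 genes under alternatives that kept all libraries, 71 kept their direction and their side of the threshold. The exception was ANGPT1 with the replicate number as a block, at -1.42 with an adjusted p of 0.0753, which left 0 of the 9 genes called; with the block JAG1, PDPN and CSPG4 missed the threshold as well (adjusted p of 0.0589 to 0.0635). The main test was planned without the block, since breed is the only factor that the labels give. Deviations of libraries with equal numbers had correlations of 0.14, -0.01 and 0.02 over genes. Over the other alternatives with all libraries the adjusted p of ANGPT1 was as low as 0.0169. DESeq2 called 1291 genes in all (713 higher, 578 lower), against 671 in edgeR, and 18 list genes (3 higher, 15 lower), against 8; the cause was not tested. With 1 library left out, and so fewer samples in each fit, 60 to 394 genes were called in all, 0 of the 9 genes in every fit, and 0 to 7 list genes; without Yorkshire replicate 2 both totals were lowest. Signs turned for TIE1 (log2 fold change of -0.31 to 0.14, positive without Wei replicate 2 or Yorkshire replicate 1), VWF (-0.27 to 0.12, positive without Wei replicate 2 or Yorkshire replicate 3) and ITGA2B (-0.33 to 0.11, positive without Wei replicate 1 or Yorkshire replicate 2), none of them called. The 5 ratios kept their direction in each fit. The median log2 fold change over all genes shifted by 0.01 with RLE scaling and by -0.02 with library size alone. Rows were not summed by symbol, since each of the 9 symbols has 1 row. Depth limits ANGPT1 most, with 50 counts over the Wei libraries and 172 over the Yorkshire libraries.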

Other observations

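Some genes of the lists, picked after their values were seen, differed between breeds without overlap and without passing edgeR's quasi-likelihood test. PROX1, a transcription factor of lymphatic endothelium that muscle fibres also make, averaged 5.05 ± 1.11 CPM in Wei and 2.37 ± 0.801 CPM in Yorkshire (SD, n = 3 each; log2 fold change 1.08 ± 0.30, adjusted p = 0.0749). EGLN3, an oxygen sensor that is itself induced by hypoxia in human and mouse cells, averaged 27.6 ± 5.17 CPM in Wei and 15.8 ± 4.68 CPM in Yorkshire (0.80 ± 0.24, adjusted p = 0.0962). RGS5, a regulator of G protein signalling in pericytes, averaged 60.6 ± 10.7 CPM in Wei and 89.3 ± 9.73 CPM in Yorkshire (-0.56 ± 0.16, adjusted p = 0.0858). DESeq2 called these 3 genes. Over all tested genes, 29.6% did not overlap between the breeds.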
